A study of Mus musculus with 9 samples.

Results

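The genes described here encode transporters that move bicarbonate and chloride across cell membranes: the anion exchangers Slc4a2, Slc26a1, Slc26a3, Slc26a4, Slc26a6 and Slc26a7, the sodium bicarbonate cotransporter Slc4a4 and the chloride channel Cftr. They were taken by name from the deposited table, which held all 8 of them among 54532 genes. The table comes from the enamel organs of the first molars of male mouse pups killed on postnatal day 12 (P12). A set of 5 pups had been raised under early life adversity (ELA), imposed with little nesting and bedding material from P2 to P12, and 4 control pups had been raised in standard cages with ample material. The pups of both groups were Crh-IRES-Cre; Ai14 tdTomato offspring on a C57BL/6 background. In these offspring Cre is made by cells that express corticotropin-releasing hormone and switches on a red fluorescent reporter, and the controls carried both alleles too. The study's methods give a lower mean body weight for the ELA pups than for the control pups. The study also states that its lightest ELA mice were left out of later analyses. Each mouse gave 1 library, so each mouse is 1 replicate, and the mice carry names such as t-203-1-4 in ELA and c-204-1-1 in control. All ELA names start with either t-203 or t-205, all control names with either c-202 or c-204, and what the number stands for is not given. That number therefore cannot be told apart from the rearing condition, and mice that share a number may not be independent.

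The enamel organ is the epithelium whose ameloblasts secrete the enamel matrix and later drive its mineralization. When apatite crystals grow, protons are released, and maturation-stage ameloblasts are known to export bicarbonate that neutralizes them. Bicarbonate is made inside the cell by carbonic anhydrases or brought in across the basolateral membrane by the cotransporter Slc4a4, while Slc4a2 exchanges chloride for bicarbonate at the same side. Exchangers of the SLC26 family and the channel Cftr have been placed at the apical side, facing the enamel.

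The ELA libraries held 18056774 to 32110160 counts each and the control libraries 18683431 to 20831736. The 8 genes lie on 5 chromosomes of the mouse genome build GRCm38, where Slc4a2 (ENSMUSG00000028962, chr5:24423837-24440950), Slc4a4 (ENSMUSG00000060961, chr5:88886818-89239653) and Slc26a1 (ENSMUSG00000046959, chr5:108669878-108675569) share chromosome 5 without being neighbours. Slc26a3 (ENSMUSG00000001225, chr12:31390871-31473917) and Slc26a4 (ENSMUSG00000020651, chr12:31519827-31559969) lie close together on chromosome 12. The other genes are Slc26a6 (ENSMUSG00000023259, chr9:108853283-108913049), Slc26a7 (ENSMUSG00000040569, chr4:14502430-14621805) and Cftr (ENSMUSG00000041301, chr6:18170687-18322768). Counts are per gene, so the transcript variants of Slc4a4 and Slc26a6 were not separated.

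Start-site sequences were found in the RefSeq promoter table (build GRCm38.p6) for 7 of the 8 genes, with 10 start sites between them. Slc26a7 has no entry in that table. The 250 bases before a start are shown for the 4 genes that were both strongly expressed and listed there, from a start site whose upstream bases overlap no annotated exon, so that the letters around the starts of these genes can be compared. Capitals mark 5 short motifs searched on both strands, which were the GC box GGGCGG, the homeodomain core TAATT, the E-box CACGTG, the TATA box TATAAA and the CCAAT box CCAAT. The Slc4a2 window is at chr5:24424982-24425231 and the Slc4a4 window at chr5:89027716-89027965, both on the plus strand. The Slc26a1 window is at chr5:108674797-108675046 on the minus strand, and the Cftr window at chr6:18170437-18170686 on the plus strand. Only the Cftr start is at the annotated gene start. The others lie inside the gene, by 1395 bases for Slc4a2, 141148 for Slc4a4 and 773 for Slc26a1.
Slc4a2: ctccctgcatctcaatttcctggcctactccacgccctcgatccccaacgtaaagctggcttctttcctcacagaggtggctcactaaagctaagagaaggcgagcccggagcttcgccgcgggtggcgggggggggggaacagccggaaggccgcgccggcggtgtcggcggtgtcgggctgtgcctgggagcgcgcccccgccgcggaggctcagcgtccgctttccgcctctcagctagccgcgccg
Slc4a4: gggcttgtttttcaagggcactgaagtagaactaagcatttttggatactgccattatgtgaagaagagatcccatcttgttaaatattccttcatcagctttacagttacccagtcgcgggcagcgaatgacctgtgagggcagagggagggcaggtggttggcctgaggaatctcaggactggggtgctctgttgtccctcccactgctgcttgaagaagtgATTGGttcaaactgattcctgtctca
Slc26a1: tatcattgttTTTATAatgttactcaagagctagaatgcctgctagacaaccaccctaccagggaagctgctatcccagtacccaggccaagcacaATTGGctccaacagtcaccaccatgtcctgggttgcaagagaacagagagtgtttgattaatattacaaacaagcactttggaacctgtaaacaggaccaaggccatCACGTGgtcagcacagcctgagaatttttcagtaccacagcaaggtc
Cftr: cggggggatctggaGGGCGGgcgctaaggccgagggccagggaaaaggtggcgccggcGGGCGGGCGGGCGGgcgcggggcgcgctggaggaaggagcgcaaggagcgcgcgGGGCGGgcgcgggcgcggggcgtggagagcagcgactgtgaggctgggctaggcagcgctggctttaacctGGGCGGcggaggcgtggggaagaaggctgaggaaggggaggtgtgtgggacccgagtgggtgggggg
The Cftr window had a GC content of 76.4% and held GGGCGG 6 times, with overlapping copies in the longest run of capitals, and this motif was present in 32.7% of 32851 promoter windows of the same length. The Slc4a2 window had a GC content of 69.2% and held none of the 5 motifs. The internal Slc4a4 window had a GC content of 48.8% and held CCAAT once, which 33.8% of all windows contained. The Slc26a1 window had a GC content of 46% and held the E-box, the TATA box and the CCAAT box once each, which were present in 6.02%, 12.4% and 33.8% of all windows. The upstream start of Slc26a1, whose window overlaps annotated exons and is not shown, had a GC content of 46.8%. It held TAATT 3 times, a motif present in 25% of all windows. The median GC content of all windows was 52.4%. The upstream start of Slc4a4, whose window lies over annotated exons and is not shown, had the highest GC content of the 10 windows, 82%, and held GGGCGG once, so the start sites of Slc4a4 differed widely. The windows of Cftr and Slc4a2 that are shown were richer in G and C than the median window, and those of Slc26a1 and the internal Slc4a4 start were below it.

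Levels of different genes were compared as FPKM, which is CPM divided by the deposited gene length in kilobases. CPM is the count scaled to the library size after TMM normalization. For Slc4a2, Slc26a1, Slc26a3 and Cftr that length equalled the annotated exon bases of the gene, and it need not match the length of a transcript. Over all 9 mice the order of mean FPKM was Slc26a7 (61.24), Slc26a1 (50.77), Slc4a4 (46.49), Slc4a2 (45.08), Cftr (39.37), Slc26a6 (1.815), Slc26a4 (0.05666) and Slc26a3 (0.02134). The first 5 genes did not keep a fixed order from mouse to mouse. Slc26a7 was above Slc26a1 in 5 of 9 mice, Slc26a1 above Slc4a4 in 5 of 9, Slc4a4 above Slc4a2 in 3 of 9 and Slc4a2 above Cftr in 5 of 9. These neighbours were therefore not separated beyond their spread. Without division by length, the order of mean CPM was Slc4a4, Slc4a2, Slc26a7, Cftr and Slc26a1, followed by Slc26a6. The step from Cftr down to Slc26a6 was present in 9 of 9 mice, with a ratio of 12.2 to 41.4, and so was the step from Slc26a6 down to Slc26a4, with a ratio of 12.1 to 42.5. By mean FPKM the first 5 genes lay above 93.2% to 95.7% of the 15909 tested genes, and Slc26a6 above 32%. The enamel organ at P12 thus held high levels of 5 of these transporters, a low level of Slc26a6 and next to no Slc26a3 or Slc26a4 mRNA.

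**Figure D1:**
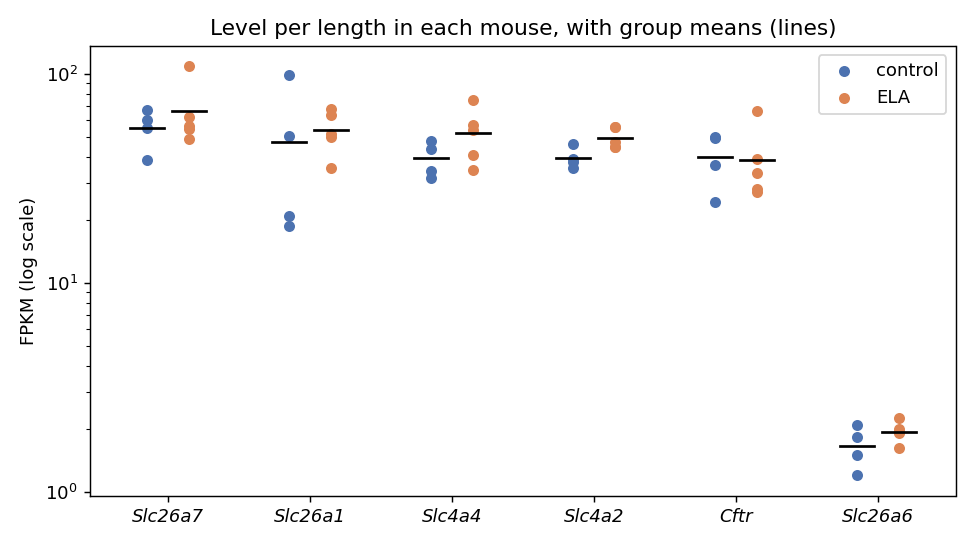
FPKM of the 6 tested transporters (log scale) in each control and ELA mouse, with lines at the group means and genes in the order of their mean level. The clouds of Slc26a7, Slc26a1, Slc4a4, Slc4a2 and Cftr overlap between 18.7 and 108 FPKM, and Slc26a6 lies far below them at 1.2 to 2.25 FPKM.

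ELA was compared with control for 15909 genes that passed a filter on low counts, with edgeR's quasi-likelihood test and Benjamini-Hochberg adjusted p-values. Of the 8 transporters 6 passed the filter, and Slc26a3 and Slc26a4 did not. In edgeR, DESeq2 and limma-voom none of the 6 had an adjusted p below 0.05, against 0.0629% of all tested genes in edgeR. At an unadjusted p below 0.05, 1 of the 6 was higher in ELA (Slc4a2), against 3.56% of all tested genes. That count was 0 without c-204-1-2, c-202-1-2, t-205-1-1 or t-203-1-3, each left out alone, and 2 without t-203-1-5. It was also 0 with plain library totals, with no filter on low counts, and without the t-203, the c-204 or the t-205 mice. None of the 6 had groups that did not overlap, against 2.68% of all tested genes. The fold change was positive for 5 of the 6, against 52.6% of all tested genes, and the median log2 fold change was 0.244 against 0.0132 for all genes. The intervals below show how large a difference could have been present in each gene.

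At the basolateral side, Slc4a2, the exchanger that trades chloride for bicarbonate, had the least spread of the strongly expressed genes. In ELA mice it was at 461.6 CPM in t-205-1-1, 370.4 in t-205-1-3, 464.4 in t-203-1-3, 370.2 in t-203-1-4 and 393.1 in t-203-1-5. In control mice it was at 293.9 CPM in c-204-1-1, 314.3 in c-204-1-2, 383.8 in c-202-1-1 and 324.8 in c-202-1-2. The 5 ELA mice all lay above 3 of the 4 control mice, and the groups overlapped because c-202-1-1 was above t-205-1-3 and t-203-1-4. The mean was 411.9 ± 47.55 CPM in ELA (SD, n = 5) and 329.2 ± 38.61 CPM in control mice (SD, n = 4), a log2 fold change of 0.32 ± 0.138 (SE) with a 95% interval of 0.02 to 0.62. That corresponds to a fold of 1.25, with an interval of 1.02 to 1.54, and the edgeR adjusted p was 0.714. The adjusted p ran from 0.384 to 1 over 21 alternative settings, with DESeq2 at the lower end. An exact two-sided permutation test of log2 CPM gave p = 0.0476 for this gene alone, where the smallest p the design allows is 0.0159. Without c-202-1-1, the only control mouse inside the ELA range, the groups necessarily no longer overlapped, and the log2 fold change was 0.41. Slc4a2 shares 1141 exon bases (13.7% of its exon length) with Fastk on the opposite strand, and whether counting used strand is not given. Fastk had a mean of 71.43 ± 15.15 CPM (SD, n = 5) in ELA and of 61.87 ± 12.79 CPM (SD, n = 4) in control mice, well below Slc4a2, with a log2 fold change of 0.21.

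Slc4a4, the electrogenic sodium bicarbonate cotransporter, had the largest positive estimate of the 6 genes and a wider spread. In ELA mice it was at 812 CPM in t-205-1-1, 441.1 in t-205-1-3, 581.2 in t-203-1-3, 613.7 in t-203-1-4 and 373.3 in t-203-1-5. In control mice it was at 517.6 CPM in c-204-1-1, 371.1 in c-204-1-2, 473.1 in c-202-1-1 and 342.3 in c-202-1-2. A set of 3 ELA mice lay above every control mouse, and t-205-1-3 and t-203-1-5 lay within the control range. The mean was 564.2 ± 170.1 CPM in ELA (SD, n = 5) and 426.1 ± 82.91 CPM in control mice (SD, n = 4). The log2 fold change was 0.41 ± 0.225 (SE), with a 95% interval of -0.09 to 0.90 and an edgeR adjusted p of 0.851. The difference was within the spread between mice, and a rise of up to 1.86-fold lay inside the interval. The estimate fell to 0.24 without t-205-1-1.

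**Figure D2:**
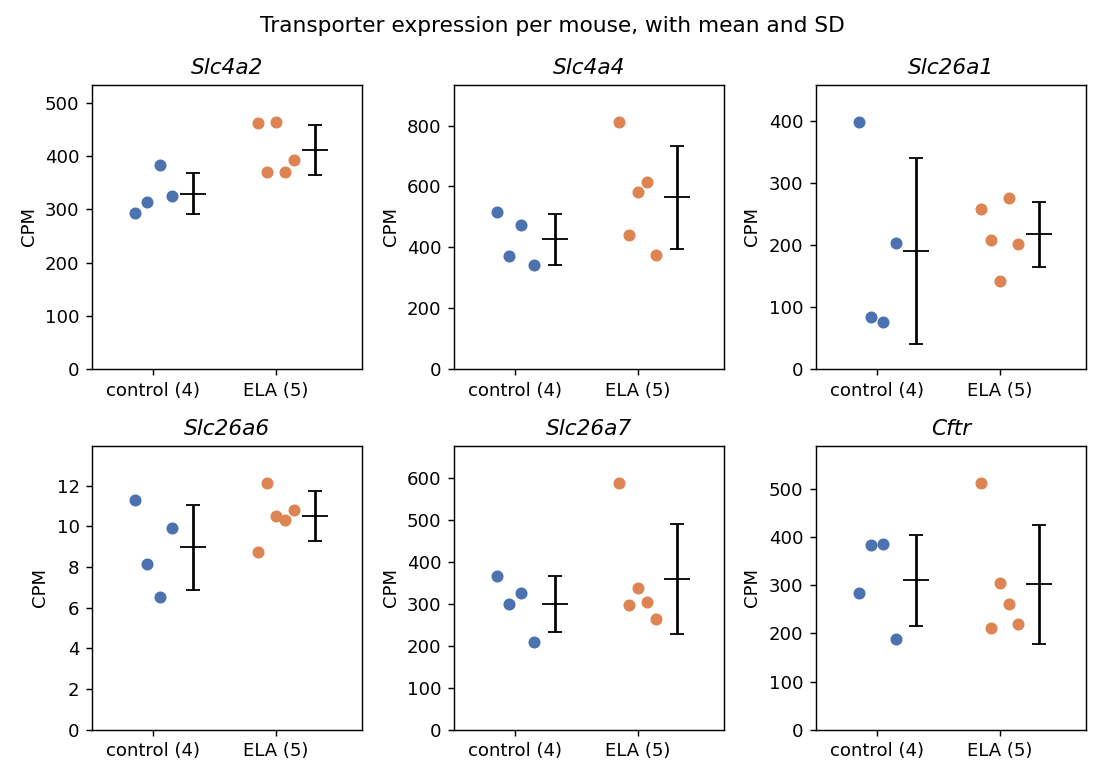
CPM of each of the 6 tested transporters in the 4 control and 5 ELA mice (points), with the group mean and SD beside them. The points of the groups overlap in every panel, least for Slc4a2, and the Slc26a1 control mice range from 75.65 to 399 CPM.

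Among the SLC26 exchangers, Slc26a1, which carries sulfate, oxalate and bicarbonate, varied most between mice of the same group. In control mice it was at 399 CPM in c-204-1-1, 84.2 in c-204-1-2, 75.65 in c-202-1-1 and 203.7 in c-202-1-2. In ELA mice it was at 258.5 CPM in t-205-1-1, 209 in t-205-1-3, 142.7 in t-203-1-3, 276.1 in t-203-1-4 and 201.6 in t-203-1-5. The 5 ELA mice lay between the extremes of the control mice, which spanned 5.27-fold against 1.93-fold within ELA. The within-group SD of log2 CPM was 0.794 for Slc26a1, and 28 of 1884 genes with a mean of at least 100 CPM (1.49%) had a larger one. The same SD was 0.505 for Cftr, 0.41 for Slc26a7, 0.378 for Slc4a4 and 0.164 for Slc4a2. The highest control mouse and one of the lowest were both c-204 mice, so a wide spread was present among mice that share a number. The mean was 217.6 ± 52.52 CPM in ELA (SD, n = 5) and 190.6 ± 150.7 CPM in control mice (SD, n = 4). The log2 fold change was 0.19 ± 0.448 (SE), with a 95% interval of -0.80 to 1.18 and an edgeR adjusted p of 0.999. It was 0.84 without c-204-1-1, -0.06 without c-204-1-2 and -0.07 without c-202-1-1, so its direction rested on which control mice were included. Slc26a1 shares 141 exon bases (3.48% of its exon length) with Idua on the opposite strand, and Idua was at 8.31 to 18.1 CPM in all mice.

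Slc26a7, an anion exchanger that can also conduct chloride, was set apart by 1 ELA mouse. It was at 589 CPM in t-205-1-1, against 296.8 in t-205-1-3, 338.6 in t-203-1-3, 304.1 in t-203-1-4 and 264.9 in t-203-1-5. In control mice it was at 365.6 CPM in c-204-1-1, 299.1 in c-204-1-2, 325.3 in c-202-1-1 and 209.9 in c-202-1-2. Apart from t-205-1-1, all ELA mice lay within the control range. The mean was 358.7 ± 131.4 CPM in ELA (SD, n = 5) and 300 ± 65.96 CPM in control mice (SD, n = 4). The log2 fold change was 0.26 ± 0.244 (SE), with a 95% interval of -0.28 to 0.79 and an edgeR adjusted p of 0.984. Without t-205-1-1 it was 0.01, and without c-202-1-2 it was 0.12.

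Slc26a6, an exchanger of chloride for oxalate and bicarbonate, was expressed at a low level in all 9 mice. It was at 8.751 CPM in t-205-1-1, 12.15 in t-205-1-3, 10.49 in t-203-1-3, 10.32 in t-203-1-4 and 10.81 in t-203-1-5. In control mice it was at 11.29 CPM in c-204-1-1, 8.14 in c-204-1-2, 6.504 in c-202-1-1 and 9.92 in c-202-1-2. The ELA values lay close together and within or just above the control range. The mean was 10.51 ± 1.217 CPM in ELA (SD, n = 5) and 8.964 ± 2.085 CPM in control mice (SD, n = 4). The log2 fold change was 0.23 ± 0.188 (SE), with a 95% interval of -0.18 to 0.64 and an edgeR adjusted p of 0.963. It was 0.10 without c-202-1-1 and 0.36 without c-204-1-1.

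Slc26a3 and Slc26a4, the exchangers known from the colon and from the inner ear and thyroid, were close to the detection limit. Slc26a3 had 9 counts over the 5 ELA libraries and 17 over the 4 control libraries, with at most 7 in a library. Slc26a4 (pendrin) had 16 counts in ELA and 19 in control libraries, with at most 9 in a library. Slc26a3 was at 0 counts in t-205-1-1 and c-204-1-1, and Slc26a4 at 0 in t-205-1-1 and t-203-1-4. A count of 0 allows up to 3 counts, or 0.131 to 0.164 CPM in these libraries, for counting error only. The highest values were 0.3372 CPM for Slc26a3 and 0.3854 CPM for Slc26a4, both in c-204-1-2. At this depth no difference between the groups was detectable for either gene, and neither entered the edgeR test.

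Cftr, the cyclic AMP-regulated chloride channel that also passes bicarbonate, had nearly the same mean in both groups. In ELA mice it was at 513.2 CPM in t-205-1-1, 212.1 in t-205-1-3, 304.6 in t-203-1-3, 261.2 in t-203-1-4 and 219 in t-203-1-5. In control mice it was at 283.3 CPM in c-204-1-1, 383.1 in c-204-1-2, 386.5 in c-202-1-1 and 188.4 in c-202-1-2. The highest value was that of an ELA mouse, and the other 4 ELA mice lay inside the control range. The mean was 302 ± 123.7 CPM in ELA (SD, n = 5) and 310.3 ± 94.35 CPM in control mice (SD, n = 4). The log2 fold change was -0.04 ± 0.288 (SE), with a 95% interval of -0.67 to 0.59 and an edgeR adjusted p of 0.999. It was -0.31 without t-205-1-1 and 0.08 without c-204-1-2, so no direction could be given. Cftr shares 129 exon bases (1.66% of its exon length) with the antisense gene Gm15592, which was at 0.154 to 1.35 CPM in all mice.

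**Figure D3:**
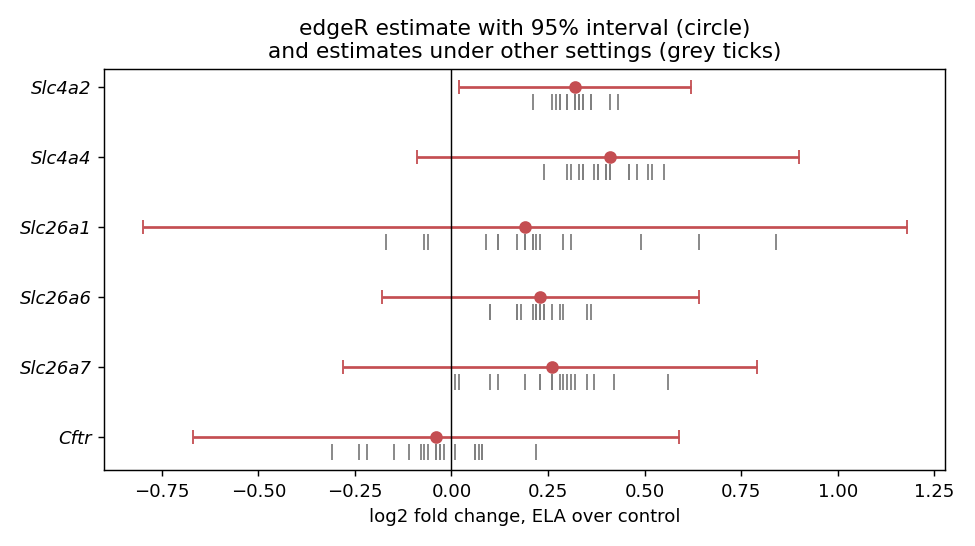
Log2 fold change of ELA over control for each tested transporter, with the edgeR estimate (circle), its 95% interval (bar) and the estimates under the alternative settings (grey ticks). The interval of Slc4a2 runs from 0.02 to 0.62 and those of the other 5 genes cross 0, while the ticks of Slc26a1 and Cftr fall on both sides of 0.

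The transporters were then compared with each other across the 9 mice. Of 15 pairs of the 6 tested genes, 2 passed a Benjamini-Hochberg adjusted p of 0.05 in an exact permutation test of Pearson's r on log2 CPM. Slc4a4 and Slc26a7 had r = 0.87 (exact permutation p = 0.00134, adjusted p = 0.0202), with a Spearman rho of 0.83 (exact permutation p = 0.00827, adjusted p = 0.124). Slc26a7 and Cftr had r = 0.82 (exact permutation p = 0.00432, adjusted p = 0.0324), with a Spearman rho of 0.78 (exact permutation p = 0.0172, adjusted p = 0.129). In each pair both genes were highest in ELA mouse t-205-1-1 and lowest in control mouse c-202-1-2. Slc4a4 was 0.74 above its mean log2 CPM in t-205-1-1 and 0.50 below it in c-202-1-2, and Slc26a7 was 0.88 above and 0.61 below. Without those 2 mice r was 0.62 for Slc4a4 with Slc26a7 (exact permutation p = 0.135) and 0.43 for Slc26a7 with Cftr (exact permutation p = 0.348). Both stayed positive and neither passed 0.05, and 7 mice are too few to show that a relation is absent. Those 2 mice were left out as the farthest from the median, a choice that tends to lower r. Without t-205-1-1 alone, r was 0.63 for Slc26a7 with Cftr (exact permutation p = 0.0825) and 0.73 for Slc4a4 with Slc26a7 (exact permutation p = 0.0282). With each mouse left out in turn, r was 0.73 to 0.94 for Slc4a4 with Slc26a7 and 0.63 to 0.90 for Slc26a7 with Cftr. Within groups, on the deviations of each mouse from its group mean, r was 0.87 for the former pair (adjusted permutation p = 0.0208) and 0.88 for the latter (adjusted permutation p = 0.102). Slc4a2 and Slc26a1 formed no pair that passed, with r = -0.11 between them (exact permutation p = 0.784). The p-values treat the 9 mice as independent.

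**Figure D4:**
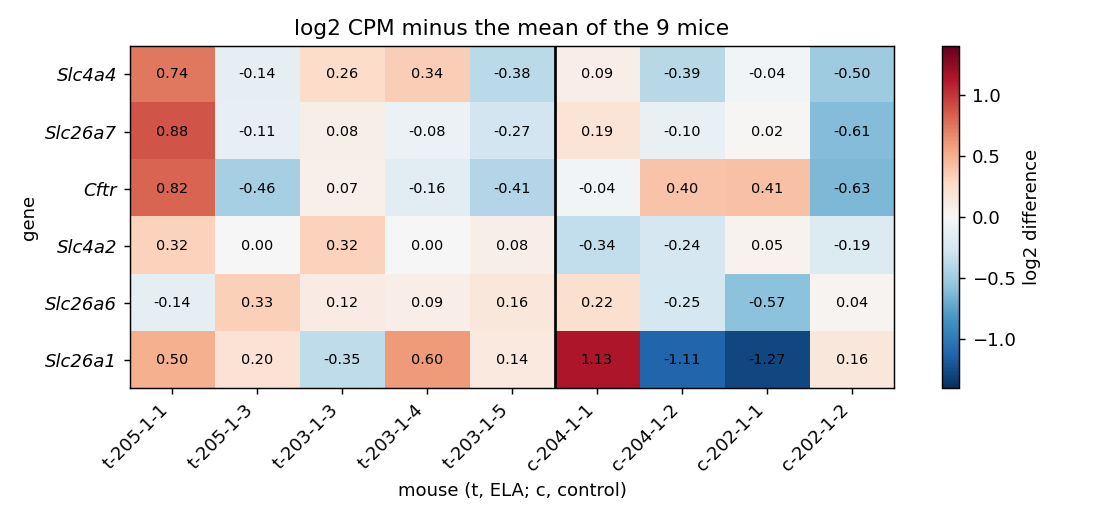
Log2 CPM of each tested transporter minus its mean over the 9 mice (rows, genes; columns, mice; colour and number, the log2 difference), with a line between ELA and control mice. Slc4a4, Slc26a7 and Cftr are all raised in t-205-1-1 and all low in c-202-1-2, and Slc26a1 ranges from -1.27 to 1.13 within the control mice.

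Marker levels also differed between mice. The summed level of 8 maturation-stage markers (Klk4, Odam, Amtn, Slc24a4, Wdr72, Odaph, Itgb6 and Fam83h) was 24593 to 43236 CPM in ELA, highest in t-205-1-1, and 29995 to 41687 CPM in control mice, lowest in c-202-1-2. The lowest sum of all 9 mice was that of t-203-1-4, which had the next highest Slc4a4 level after t-205-1-1, and t-205-1-1 was highest of all mice for 4 of the 8 markers. Odam was the largest part of this sum. Mouse t-203-1-4 was lowest of all mice for Klk4, Odam and Wdr72, but not for Amtn, Slc24a4, Odaph, Itgb6 or Fam83h. Of the 8 markers, 4 had a positive and 4 a negative estimate, and none was at 0 in every library. The summed level of 8 markers of dental mesenchyme and fibroblasts was 11875 to 23249 CPM in ELA, lowest in t-203-1-3, and 15565 to 30858 CPM in control mice, highest in c-202-1-2, and all 8 had a negative estimate. The summed level of 4 secretory-stage markers (Amelx, Ambn, Enam and Mmp20) was 71275 to 129847 CPM in ELA and 50292 to 64506 CPM in control mice, with no overlap. Taken singly, Amelx (log2 fold change 1.56) and Enam (5.30) did not overlap between the groups. Ambn (0.53), the largest part of the sum, and Mmp20 (0.08) did overlap. Markers of both ameloblast stages were thus abundant in every library, and their summed levels differed between mice. What part these differences had in the transporter levels was not tested, and in bulk RNA fewer cells of a type and less RNA per cell cannot be told apart. Markers of neurons and glia summed to 566.1 CPM in t-203-1-4 and to at most 77.1 CPM in the other mice, and markers of oral keratinocytes summed to 3225 CPM in t-205-1-3 and to at most 120 CPM in the others. Without t-203-1-4 or without t-205-1-3, the log2 fold change of Slc4a2 was 0.36 in either case, and none of the 6 transporters passed the adjusted p in edgeR.

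For each tested transporter, the 3 tested genes with the highest Pearson's r of log2 CPM over the 9 mice were taken from all 15909, which is a description and carries no p. They were Eda (0.963), Slc39a14 (0.962) and Panx1 (0.947) for Slc4a2, and Ccni (0.970), Ogdhl (0.964) and Zfp704 (0.962) for Slc4a4. They were Kazn (0.980), Rgs6 (0.979) and Mfsd11 (0.978) for Slc26a1, and Ppp1r26 (0.960), Gm16861 (0.958) and Grb14 (0.944) for Slc26a6. For Slc26a7 they included Exoc6 (0.980) and Hspa4l (0.979), and for Cftr they were Slu7 (0.985), Lrrk2 (0.984) and Tax1bp1 (0.982). None of these genes stood beside more than 1 of the transporters. On deviations from the group means, which remove the difference between the groups, 3 of 3 genes were again the nearest for Slc26a1 and Slc26a6, 2 of 3 for Cftr and 0 of 3 for Slc4a2, Slc4a4 and Slc26a7. These counts describe ranks among 15909 genes, and r itself stayed high. On the deviations r was 0.902 to 0.922 for the genes beside Slc4a2 and 0.956 to 0.969 for those beside Slc4a4. With Slc26a7 it was 0.979 for both Exoc6 and Hspa4l.

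The genes that work around these transporters were read from the same fit, as lists of other family members, proton exchangers, proton sensors, pumps, channels, carbonic anhydrases and regulators. In edgeR no gene of any list had an adjusted p below 0.05. Of 14 other SLC4 and SLC26 genes 10 were tested, 6 with a positive estimate, with a median log2 fold change of 0.03. Slc4a3, a further chloride-bicarbonate exchanger, was at 11.27 to 23.44 CPM in ELA and 11.56 to 19.03 CPM in control mice (log2 fold change 0.41, edgeR adjusted p = 0.868). Slc26a8 (log2 fold change 0.69, edgeR adjusted p = 0.948) and Slc4a8 (0.76, edgeR adjusted p = 0.987) were expressed at a mean of less than 2 CPM. Of 11 sodium-proton exchangers, which extrude protons in return for sodium, 9 were tested and 5 had a positive estimate. Slc9b2 (0.30, edgeR adjusted p = 0.842) and Slc9b1 (0.61, edgeR adjusted p = 0.929) had positive estimates, Slc9b1 at less than 2 CPM.

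Of 12 proton-sensing receptors and channels 8 were tested and 3 had a positive estimate, and the median log2 fold change of the 8 was -0.10. Gpr4, a receptor that responds to extracellular protons, was at 52.27 to 95.16 CPM in ELA and 30.85 to 63.96 CPM in control mice (log2 fold change 0.54, edgeR adjusted p = 0.682). The proton channel Hvcn1 was at less than 4 CPM (log2 fold change -0.53, edgeR adjusted p = 0.942).

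Of 9 subunits of plasma membrane proton pumps 4 were tested, and 1 had a positive estimate. Tcirg1, the pump subunit known from osteoclasts, was at 17.61 to 36.7 CPM in ELA and 26.32 to 40.66 CPM in control mice (log2 fold change -0.39, edgeR adjusted p = 0.849). Atp6v0d2 had a log2 fold change of -0.42 (edgeR adjusted p = 0.965). All 6 tested osteoclast markers had negative estimates as well, and their summed level was 186.3 to 673.7 CPM in ELA and 401.9 to 689.8 CPM in control mice; the part of these cells in the pump estimates was not tested. Atp6v1c2 had a log2 fold change of 1.43 (edgeR adjusted p = 0.62) at less than 1 CPM in every mouse.

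Of 26 chloride channels and cotransporters 21 were tested and 16 had a positive estimate, with a median log2 fold change of 0.09. Slc12a2, which loads cells with chloride, was at 43.37 to 106.4 CPM in ELA and 43.06 to 55.61 CPM in control mice (log2 fold change 0.43, edgeR adjusted p = 0.83). Slc12a7, which lets chloride out with potassium, had a log2 fold change of 0.33 (edgeR adjusted p = 0.83), and Best3 had one of -1.31 at less than 5 CPM (edgeR adjusted p = 0.798). None of these differences exceeded the spread between mice after adjustment.

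Of 16 carbonic anhydrases 11 were tested, 8 had a positive estimate, and 5 were higher in ELA and 0 lower at an unadjusted p below 0.05, where 3.56% of all tested genes were higher. Car6, a secreted form, was at 111.2 ± 46.33 CPM in ELA (SD, n = 5) and 32.72 ± 5.562 CPM in control mice (SD, n = 4), with no overlap (log2 fold change 1.77, edgeR adjusted p = 0.0791, DESeq2 adjusted p = 8.83e-07). Car3, a cytosolic form, had a log2 fold change of 0.99 (edgeR adjusted p = 0.0877, DESeq2 adjusted p = 3.99e-05). Car12, a form anchored in the plasma membrane, had one of 1.02 (edgeR adjusted p = 0.11, DESeq2 adjusted p = 0.00052). These 3 genes were called in DESeq2, where 0.502% of tested genes were called as higher, and not in edgeR. Their groups did not overlap, against 2.68% of all tested genes. These genes were named for the smallest p of their list, so the lack of overlap adds no separate support. In edgeR 2 of them, Car6 and Car12, passed the adjusted p without t-205-1-3. Car8, also among the 5 with an unadjusted p below 0.05, had the largest estimate of the list (3.01, edgeR adjusted p = 0.726). That estimate came from 49.98 CPM in t-203-1-4, the mouse with the neural markers, against at most 1.801 CPM elsewhere. Car8 was singled out after its values were seen.

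Of 19 regulators and scaffolds 13 were tested and 7 had a positive estimate. Ezr, the linker between membrane proteins and actin, was at 403.1 CPM in t-205-1-1, 434.9 in t-205-1-3, 457.8 in t-203-1-3, 427.7 in t-203-1-4 and 390 in t-203-1-5, and at 259.6 to 378.1 CPM in control mice. The groups of Ezr did not overlap, as in 2.68% of all tested genes, and it was named for the smallest p of its list. Its log2 fold change was 0.41 ± 0.136 (SE), with an edgeR adjusted p of 0.544. Slc9a3r1, a scaffold that binds Cftr and proton exchangers, had a log2 fold change of -0.49 (edgeR adjusted p = 0.83). Ahcyl2, a relative of the Slc4a4 activator Ahcyl1, had one of 0.34 (edgeR adjusted p = 0.853).

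**Figure D5:**
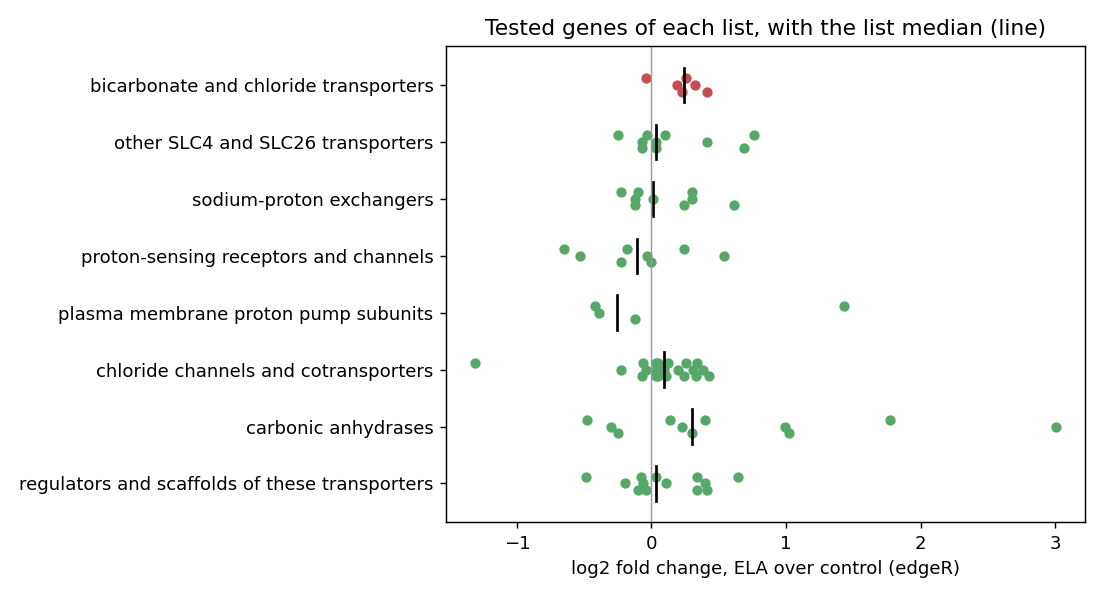
Log2 fold change of ELA over control (edgeR) for each tested gene of the transporters and of the 7 lists around them (points), with a line at each median. The 6 transporters lie between -0.04 and 0.41, and the carbonic anhydrases reach 3.01 for Car8.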

How the data were processed

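The labels assigned each library to ELA or control, and every column of sample values was matched to its mouse by name. The authors deposited whole-number counts per gene, made for them by a sequencing company from polyA-selected RNA. Of the tools, the submitters' processing notes list CASAVA, HISAT2 and HISAT, with no version. Neither the counter, its handling of strand nor the build is stated there. Of the 54532 identifiers 54409 are in GENCODE M21, 98.3% with the same coordinates, including all 8 transporters, so positions are on GRCm38.

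Counts were fitted with edgeR 4.0.16 in R 4.3.3 over all 9 libraries (filterByExpr with a count minimum of 10, TMM, glmQLFit with robust estimation, glmQLFTest), with Benjamini-Hochberg adjustment over 15909 genes and calls at 0.05. Alternatives were DESeq2 1.42.0, which the study used, limma-voom 3.58.1, other scalings, other filters and left-out mice. Log2 CPM used a prior count of 2. FPKM used the deposited gene lengths. The edgeR, limma-voom and DESeq2 fits were run on simulated data, and only DESeq2 was held to no limit on its share of false calls. No replicate pair was a repeat of the same library (chi-square per degree of freedom 19.5 to 121.7). The study's methods name more than 1 litter per group for the same numbers of male pups used in qPCR, and do not tie the sequenced mice to litters, so p-values measure the spread between these mice.

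The transporters, lists and tests were chosen with earlier results of these data known. Named are all 8 transporters, per list the 3 genes of smallest p and every gene past the adjusted p, and the 3 genes most correlated with each tested transporter; a few of them are not reported here.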

Additional observations from a re-analysis of the deposited data

Results flagged for a closer look

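Slc26a7 stood at 589 CPM in ELA mouse t-205-1-1 and at 265 to 339 CPM in the other 4 ELA mice, a gap large against the range of the group by Dixon's test at the 95% level. In the same mouse Slc4a4 and Cftr were also at their highest values of all 9 mice, 812 and 513.2 CPM. Slc4a8, a sodium-driven chloride-bicarbonate exchanger best known from neurons, stood at 4.94 CPM in ELA mouse t-203-1-4 and at 0.109 to 1.09 CPM in the other 4 ELA mice. Markers of neurons and glia were highest in the same mouse, at a summed 566.1 CPM, and their part in the Slc4a8 value was not tested. A total of 54 sets of values were examined in this way and 2 stood out, and chance sets apart about 1 in 20.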

How the results depend on the processing

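None of the 6 tested transporters passed the adjusted p of 0.05 in any of the 21 alternative fits. Of 132 alternative fold changes 121 kept their direction and their side of the threshold. That threshold was applied to the adjusted p of the fits and to the unadjusted p of the permutation tests. Among all tested genes, 10 passed the adjusted p in edgeR with TMM, and 140 did in DESeq2, 4 with plain library totals, 38 with no filter on low counts, 1 with a filter at a mean of 1 CPM, and 3 with counts summed per title number. There were 1 without the c-202 mice, 4 without the t-203 mice, 0 without the c-204 mice and 59 without the t-205 mice, and 0 to 25 when each mouse was left out in turn. The number of transporters whose groups did not overlap was 0 with all mice, 1 (Slc4a2) without the c-202 mice, and 0 to 1 with each mouse left out. No share of all tested genes was worked out for these smaller sets, and with fewer mice groups separate more easily. For Slc26a1 the log2 fold change reversed to -0.06, -0.07 and -0.17 without c-204-1-2, without c-202-1-1 and without the c-202 mice, and it was 0.84 without c-204-1-1. For Cftr it reversed to 0.08 without c-204-1-2 or c-202-1-1, to 0.06 without t-205-1-3 or t-203-1-5, to 0.01 without t-203-1-4, to 0.22 without the t-203 mice and to 0.07 without the c-204 mice, and it was -0.31 without t-205-1-1. The cause of these changes was not tested. Of the lists, 3 carbonic anhydrases passed in DESeq2 and without the t-205 mice and 2 passed with no filter and without t-205-1-3, and 1 gene of the chloride list passed without the t-205 mice. The exact permutation test gave Slc4a2 an unadjusted p of 0.0476 at an estimate of 0.32. In edgeR the unadjusted p of Slc4a2 was 0.0372, so there was no change of side on the same measure. The left-out pair of mice and the overlap counts were alternatives chosen after seeing the data. No paired analysis was possible because the replicate numbers in the titles do not match mice across the groups. With 5 and 4 mice, 2 transporters below the filter and title numbers nested in the groups, small differences could not be resolved.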
